A study of Mus musculus with 18 samples.

Results

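The genes examined here encode fibronectin, its main receptors and the proteins of fibrillar adhesions, the long contacts in which fibroblasts pull secreted fibronectin into fibres. The group has 10 members, chosen by name: Fn1, Itga5, Itgb1, Sdc4, Tns1, Tns2, Tns3, Tln1, Fermt2 and Ilk. All 10 matched a single identifier among the 55487 gene identifiers of the count table, and all 10 were among the 13865 genes with enough counts to test. The cells were mouse embryonic fibroblasts (MEFs), connective tissue cells cultured from mouse embryos, and the labels give no strain, genotype, passage or embryo of origin. They were plated in growth medium with serum that held no added uracil (control), 10 µM uracil or 30 µM uracil, and total RNA was taken after 24 h. Each dose had 6 libraries with the replicate numbers 1 to 6, 18 in all, which the study's methods call biological replicates, and what a shared number stands for is not given.

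Fibronectin is secreted as a dimer that stays soluble until cells bind it. The integrin heterodimer of the alpha 5 and beta 1 subunits binds its Arg-Gly-Asp site, and talin and kindlin attach to the beta tail from inside the cell and switch the receptor to its active state. Tensins then join the receptor to actin, and as the cytoskeleton pulls the receptors inwards along fibrillar adhesions the bound fibronectin is stretched and assembled into fibres. Syndecan-4 binds the heparin-binding region of fibronectin and acts with the integrin, and integrin-linked kinase is a scaffold below the beta tail. Cultured fibroblasts such as MEFs deposit a matrix rich in fibronectin in this way.

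The places where ligand, receptor and activators meet are short and lie in the coding sequence. They are shown because each is what joins one member to the next. The sequences were read 5′ to 3′ on the coding strand from the GENCODE M39 canonical transcripts on GRCm39. The Fn1 stretch (chr1:71645887-71645931, minus strand, exon 30 of 46) has the Arg-Gly-Asp codons in capitals. The Itga5 stretch (chr15:103253744-103254393, minus strand, joined across the intron between exons 29 and 30 of 30) has the conserved membrane-proximal tail motif of alpha subunits in capitals. The Itgb1 stretch (chr8:129452656-129458566, plus strand, joined across the intron between exons 15 and 16 of 16) has in capitals the inner tail motif, to which talin binds, and after it the outer one, to which kindlin binds.
Fn1 coding stretch: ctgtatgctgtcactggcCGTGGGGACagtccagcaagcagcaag
Itga5 coding stretch: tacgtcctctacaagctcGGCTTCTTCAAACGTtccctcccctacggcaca
Itgb1 coding stretch: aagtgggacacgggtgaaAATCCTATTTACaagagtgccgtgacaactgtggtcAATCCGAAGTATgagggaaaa

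The libraries were not alike. Gene counts were 11.6 to 20.8 M per library in 15 libraries, in which 1.72% to 3.59% of read pairs were unaligned. The other 3 exceeded 5% unaligned pairs: control replicate 1 (54.2%, 3.96 M gene counts), 10 µM replicate 6 (5.24%, 14.7 M) and 30 µM replicate 6 (37.9%, 7.39 M). The study's methods say that a vehicle and a 30 µM sample were set aside for human RNA, and the labels do not tell which, so the tests are given with and without these 3 libraries, and it is said which libraries other values rest on. Several fibroblast markers were abundant, with a median over the 15 libraries of 7604 CPM (the library-scaled count, with TMM factors) for Col1a1, 9600.0 for Col1a2 and 5601 for Vim. Others of the same list were low, with medians of 42.9 CPM for Thy1, 36.6 for Pdgfra and 3.65 for Lum. The 5 immune markers summed to 1.36 to 3.20 CPM per library over the 15, with Ptprc, Adgre1 and Itgam at most at 3 counts and Cd68 and Csf1r at up to 29 each. The 4 endothelial markers summed to 7.18 to 11.8 CPM, with Pecam1 at most at 5 counts and Cdh5 at 6, but Kdr at up to 145 and Tek at up to 53. Mesothelial markers were present, with Msln at 28.6 to 113 CPM in the 15 libraries.

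Per kilobase of exon, Fn1 was the most abundant member and the tensins were the least. In the 5 control libraries with at most 5% unaligned pairs, Fn1 stood at 473 ± 72.6 CPM per kb (SD, n = 5, as in the values that follow). Itgb1 followed with 207 ± 18.8 CPM per kb, then Sdc4 with 116 ± 7.57 and Tln1 with 111 ± 3.75. Sdc4 and Tln1 were closer to each other than their spread. Ilk had 63.4 ± 1.21 CPM per kb, Fermt2 41.8 ± 3.98 and Itga5 33.8 ± 7.33, so the alpha subunit lay well below the beta subunit that it shares with other alpha subunits. Tns3 (7.86 ± 0.571 CPM per kb) and Tns1 (7.64 ± 1.27) did not differ beyond their spread, and Tns2 was lowest at 5.58 ± 0.630. The order was the same at 10 µM and at 30 µM, where Fn1 had 426 ± 30.0 and 443 ± 24.7 CPM per kb. With all 6 controls, Fn1 had 549.6 ± 199 CPM per kb, Itga5 43.6 ± 24.8 and Tns1 9.31 ± 4.26 (SD, n = 6), so that Itga5 came level with Fermt2 (42.9 ± 4.53) and Tns1 passed Tns3 (8.49 ± 1.64), each by less than the spread. The depth behind these values ranged from 191 counts of Tns2 in its thinnest library to 193628 counts of Fn1 in its deepest.

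None of the members passed the test for a change with uracil. By edgeR's quasi-likelihood test with adjustment over all 13865 genes, 0 of 10 members were called at 10 µM against control, where 0% of all genes were called, and 0 of 10 at 30 µM against control, 30 µM against 10 µM, or in the test of any dose, where again 0% of genes were called. At an unadjusted p under 0.05 there were 0 members in each of these tests, beside 0.692% of all genes at 10 µM, 4.29% at 30 µM, 2.33% for 30 µM against 10 µM and 1.53% for any dose. In the 15 libraries the count was also 0 in each, beside 4.72%, 4.33%, 1.88% and 2.82% of genes in the same order, and 0% of genes passed after adjustment. These fits left the replicate number out of the model. With the number as a block in the 15 libraries, 4 of 10 members had an unadjusted p under 0.05 at 10 µM (edgeR), all lower. That stood beside 3.72% of all genes, and 0 of the 10 passed after adjustment. DESeq2, with dose alone in the model and all 18 libraries, called 0 members and 0 genes in the 4 dose tests. Over the 3 contrasts the members' log2 differences lay between −0.33 and 0.32 with standard errors of 0.047 to 0.38. Without the 3 libraries over 5% unaligned they lay between −0.19 and 0.086 with standard errors of 0.040 to 0.15, and adjusted p was 0.944 to 1.00. In bulk RNA, fewer cells that express a gene and less of its RNA per cell cannot be told apart.

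**Figure D1:**
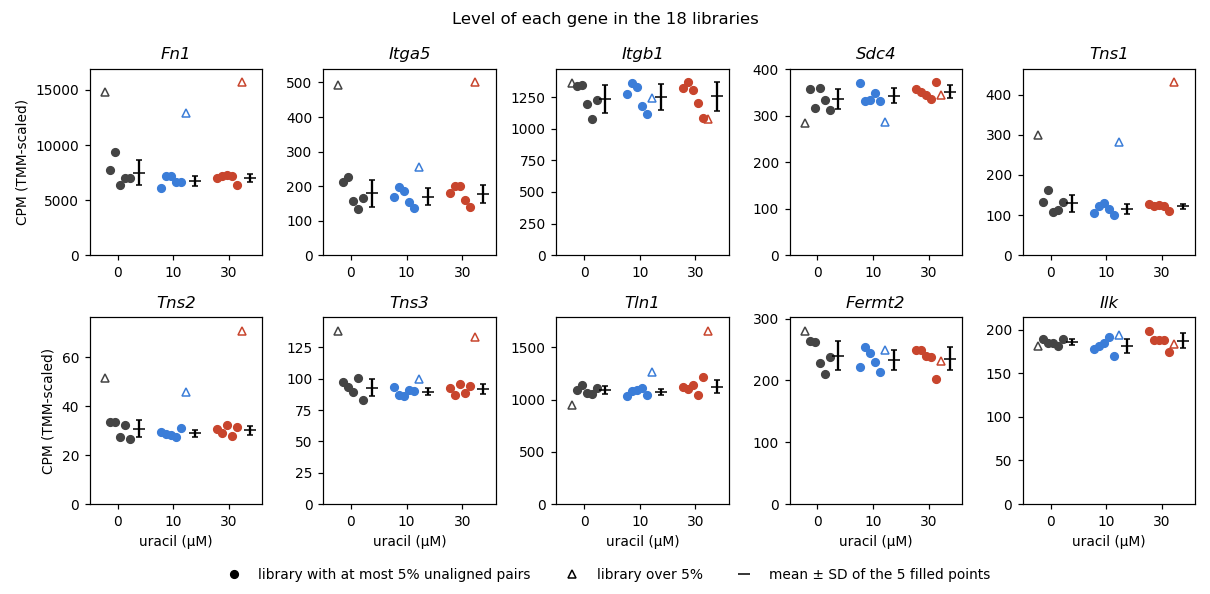
CPM (vertical axis, from 0) of each member in all libraries by uracil dose (horizontal axis, µM), with filled circles for libraries at or under 5% unaligned pairs, open triangles for those over it, and the mean ± SD of the 5 filled points beside them. The filled points of the 3 doses overlap in every panel, while the triangles stand high for Fn1, Itga5, Tns1 and Tns2 and, by less, for Tns3.

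Fn1 (ENSMUSG00000026193, chr1:71624673-71692419, minus strand, with the lncRNA gene Apol7d running opposite) encodes fibronectin. In the control libraries at or under 5% unaligned it ranged from 6378 to 9341 CPM with a median of 6977, and control replicate 1 had 14769. At 10 µM the range was 6056 to 7217 CPM with a median of 6673, and replicate 6 had 12901. At 30 µM it was 6336 to 7315 CPM with a median of 7165, and replicate 6 had 15686. The doses overlapped, and in each of them the library over 5% unaligned was the highest. In the 15 libraries the log2 difference from control was −0.15 ± 0.081 (SE) at 10 µM, with a 95% interval of −0.33 to 0.018. At 30 µM it was −0.10 ± 0.081, from −0.28 to 0.069. The standard error was 0.25 with all 18. Of the replicate numbers in which both libraries were at or under 5%, the uracil library was the higher in 1 of 4 at either dose.

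Itga5 (ENSMUSG00000000555, chr15:103252713-103275270, minus strand, which also contains Mir6963) encodes the alpha 5 subunit, which makes the receptor specific for fibronectin. It ranged from 135 to 228 CPM in control with a median of 166, from 136 to 199 at 10 µM with a median of 167, and from 139.9 to 201 at 30 µM with a median of 179.99. The libraries over 5% unaligned had 492, 256 and 500.3 CPM in the same order. The doses again overlapped. The log2 difference was −0.096 ± 0.15 at 10 µM (SE, 15 libraries, −0.41 to 0.22) and −0.037 ± 0.15 at 30 µM (−0.36 to 0.28). At 30 µM it was higher than at 10 µM in 5 of 5 replicate numbers with both libraries at or under 5%, by 0.013 to 0.11 on the log2 scale. Among the other members Tns2 was also higher in 5 of 5, Fn1, Tln1 and Ilk in 4 of 5, and the rest in 2 or 3 of 5. For Itga5 that contrast had an unadjusted p of 0.701 in edgeR's quasi-likelihood test without the number in the model. This p does not measure the spread of the differences within numbers.

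Itgb1 (ENSMUSG00000025809, chr8:129411876-129460618, plus strand) encodes the beta 1 subunit. It was far steadier, at 1078 to 1348 CPM in control with a median of 1225, 1120.3 to 1361 at 10 µM with a median of 1276, and 1082 to 1366 at 30 µM with a median of 1304. The libraries over 5% unaligned had 1364, 1242 and 1073 CPM, the first just above the range of the other controls, the second within the range of its dose and the third just below its own. Its log2 difference over the 15 libraries was 0.014 ± 0.072 at 10 µM (SE, interval −0.14 to 0.17) and 0.015 ± 0.072 at 30 µM (−0.14 to 0.17).

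Sdc4 (ENSMUSG00000017009, chr2:164266025-164285807, minus strand) encodes syndecan-4, the heparan sulphate proteoglycan that serves as co-receptor. It had 313 to 360.2 CPM in control with a median of 333, 332 to 371 at 10 µM with a median of 334, and 336 to 372 at 30 µM with a median of 350.1. In control replicate 1 and 10 µM replicate 6 it was below all other libraries of the dose, at 283 and 286 CPM, and in 30 µM replicate 6 it was 345. Over the 15 libraries, 10 µM differed from control by 0.026 ± 0.047 on the log2 scale (SE, −0.074 to 0.13), and 30 µM by 0.057 ± 0.047 (−0.042 to 0.16).

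The tensins bind the beta tail and actin, and the tensin 1 protein is the best known marker of fibrillar adhesions. Tns1 (ENSMUSG00000055322, chr1:73949390-74163731, minus strand) had 108 to 162 CPM in control with a median of 132, 99.5 to 129 at 10 µM with a median of 114, and 109 to 128 at 30 µM with a median of 123. The libraries over 5% unaligned had 299.5, 282 and 430.3 CPM, the last of them further above its mates, as a fold, than any other member. Over the 15 libraries the 10 µM level differed from control by −0.19 ± 0.097 on the log2 scale (SE, −0.39 to 0.019), and the 30 µM level by −0.10 ± 0.097 (−0.30 to 0.10). With all 18 libraries the 30 µM value was 0.14 ± 0.38, so its sign turned with those libraries.

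Tns2 (ENSMUSG00000037003, chr15:102008848-102024837, plus strand, with Spryd3 running opposite) had 26.7 to 33.7 CPM in control with a median of 32.3, 27.5 to 31.2 at 10 µM with a median of 28.8, and 27.8 to 32.4 at 30 µM with a median of 30.6. The libraries over 5% unaligned had 51.4, 45.7 and 70.7 CPM. Tns3 (ENSMUSG00000020422, chr11:8381631-8614681, minus strand) had 83.2 to 100.3 CPM in control with a median of 93.4, 86.2 to 93.7 at 10 µM with a median of 90.2, and 86.6 to 95.9 at 30 µM with a median of 92.5. Its libraries over 5% unaligned had 138, 100.2 and 133 CPM. The doses overlapped for both genes. In the 15 libraries the log2 differences at 10 and 30 µM were −0.093 ± 0.071 and −0.037 ± 0.071 for Tns2 (SE), and −0.054 ± 0.050 and −0.028 ± 0.050 for Tns3.

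Tln1 (ENSMUSG00000028465, chr4:43531513-43562691, minus strand, with Creb3 running opposite) encodes talin 1, which activates integrins and links them to actin. Its values were 1049 to 1137 CPM in control with a median of 1092, 1039 to 1107 at 10 µM with a median of 1082, and 1049 to 1215 at 30 µM with a median of 1122. Control replicate 1 lay below the other controls at 951 CPM, whereas 10 µM replicate 6 had 1269 and 30 µM replicate 6 had 1655, both above theirs. With all 18 libraries the log2 difference at 30 µM was 0.19 ± 0.094 (SE, −0.012 to 0.38), with the smallest unadjusted p of any member in a dose contrast (0.0637, adjusted p = 0.931 in edgeR's quasi-likelihood test). Without the 3 libraries it was 0.038 ± 0.040 (−0.046 to 0.12).

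Fermt2 (ENSMUSG00000037712, chr14:45696239-45767770, minus strand, overlapped on the same strand by 9630050E16Rik) encodes kindlin-2, the partner of talin in integrin activation. It had 209.6 to 264 CPM in control with a median of 238, 214 to 255 at 10 µM with a median of 229.6, and 203 to 249 at 30 µM with a median of 239. Ilk (ENSMUSG00000030890, chr7:105385782-105392182, plus strand, with Rrp8 and Taf10 running opposite) encodes integrin-linked kinase and was the steadiest member. It had 181 to 189.6 CPM in control with a median of 185, 170.1 to 191 at 10 µM with a median of 181, and 175 to 198 at 30 µM with a median of 188. For Fermt2 and Ilk the libraries over 5% unaligned lay close to the rest, at 232 to 279.6 and 182 to 194 CPM. At 10 and 30 µM the log2 differences in the 15 libraries were −0.051 ± 0.068 and −0.036 ± 0.068 for Fermt2 (SE), and −0.042 ± 0.041 and 0.0039 ± 0.041 for Ilk.

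**Figure D2:**
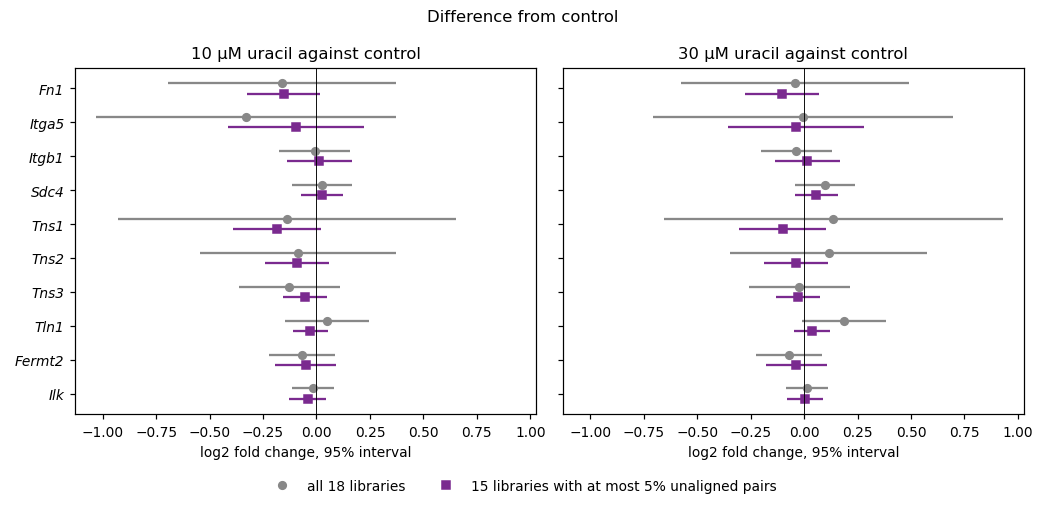
Log2 fold change against control (horizontal axis) of each member at 10 µM (left) and 30 µM uracil (right), with 95% intervals as lines, from all 18 libraries (grey circles) and from the 15 with at most 5% unaligned pairs (purple squares). Every interval includes 0, and those of Fn1, Itga5, Tns1 and Tns2 are the ones that shorten most without the 3 libraries.

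In the 15 libraries 8 of 10 members had a lower fitted level at 10 µM than in control, with a median log2 difference of −0.052, beside −0.0010 over all 13888 genes tested there. At 30 µM 6 of 10 were lower, with a median of −0.032 beside −0.0035 over all genes. All 10 were higher at 30 µM than at 10 µM, with a median of 0.048 beside 0.0019, but the contrasts share libraries. The difference between 30 and 10 µM exceeded 1 SE in 2 of 10 members, and the smallest unadjusted p among them was 0.117 (edgeR). In these 15 libraries the ranges of any 2 doses overlapped for each member.

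Ratios within a library do not depend on how libraries are scaled. The log2 ratio of Itga5 to Itgb1 counts was −2.58 ± 0.57 in control, −2.80 ± 0.27 at 10 µM and −2.55 ± 0.72 at 30 µM (SD, n = 6 each). For Fn1 to Itgb1, ligand against receptor, it was 2.73 ± 0.37, 2.59 ± 0.40 and 2.71 ± 0.57, and for Tns1 to Tns3 it was 0.57 ± 0.36, 0.53 ± 0.50 and 0.62 ± 0.54. Two-sided exact permutation tests of 6 against 6 libraries gave p of 0.498 to 0.937 over the 9 comparisons (all 0.937 after Benjamini-Hochberg adjustment over the 9). The smallest p this design can give is 0.00216. Without the 3 libraries the ratio of Itga5 to Itgb1 was −2.81 ± 0.19, −2.90 ± 0.10 and −2.84 ± 0.11 (SD, n = 5 each), and the exact permutation p over the 9 comparisons was 0.119 to 0.698 (adjusted p = 0.698 throughout).

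Between replicate numbers, Itga5, Itgb1 and Fermt2 differed beyond the spread within a number. Over the 15 libraries Itga5 averaged 204 CPM in number 2 and 205 in number 3, 174 in number 1, 158 in number 4 and 137 in number 5, with 166 in the only library of number 6. The SD between doses was 2.16 to 20.7 CPM within a number (n = 2 or 3). Itgb1 went the same way, from 1356 CPM in number 2 and 1327 in number 3 to 1191 in number 4 and 1094 in number 5. Fermt2 averaged 256 CPM in number 2, 248 in number 3, 232 in number 4 and 209 in number 5. The ratio of the highest to the lowest mean over numbers 1 to 5 was 1.498 for Itga5, 1.24 for Itgb1 and 1.22 for Fermt2.

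**Figure D3:**
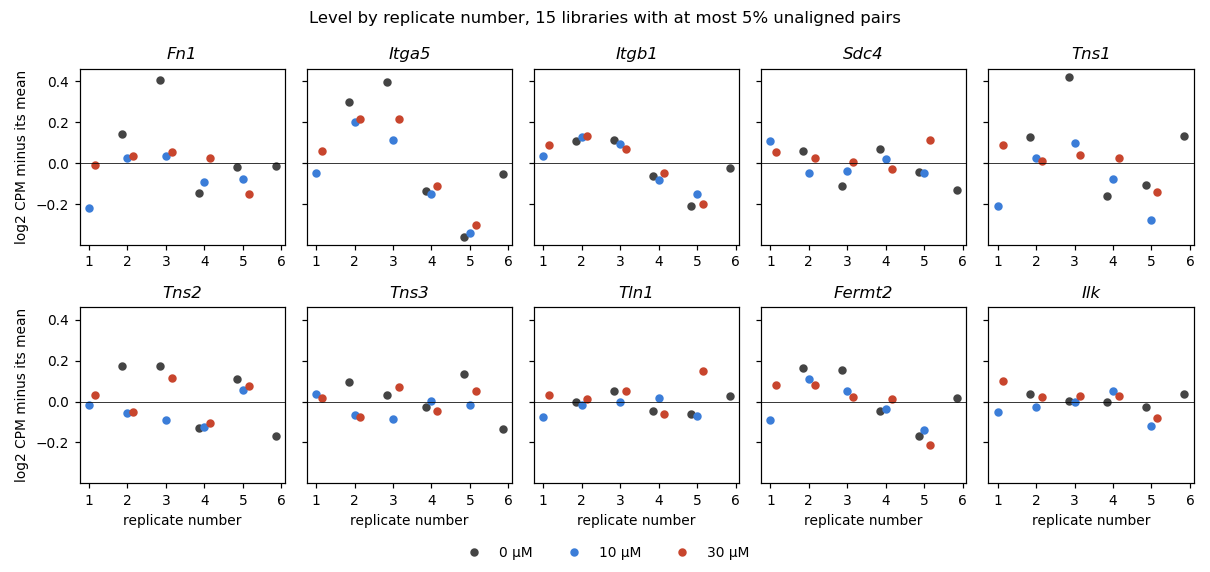
Log2 CPM of each member less its mean over the 15 libraries with at most 5% unaligned pairs (vertical axis), by replicate number (horizontal axis) and dose (colour). For Itga5, Itgb1 and Fermt2 the doses of a number lie together and number 5 is lowest, whereas the points of Tln1 and Sdc4 show no such order.

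In edgeR's test of replicate number in the 15 libraries, with dose in the model, 3 of 10 members passed, beside 20.8% of all genes. These were Itga5 (adjusted p 2.27e-07), Itgb1 (adjusted p 5.11e-05) and Fermt2 (adjusted p 0.0042). With all 18 libraries 1 of 10 passed, beside 12.6% of all genes, and that member was Itgb1 (adjusted p 0.0329). At an unadjusted p under 0.05 there were 5 of 10 members beside 32.1% of all genes in the 15 libraries, and 4 of 10 beside 26.4% in the 18. With all 18 the adjusted share of members stood near that of all genes. The 18-library count turned on single libraries: leaving out control replicate 6 gave 6, control replicate 1 gave 3, 10 µM replicate 1 gave 2, 30 µM replicate 6 gave 1, and each of the other 14 gave 0. In the 15 libraries the number took up 97.3% of the variance of log2 CPM in Itgb1, 93.1% in Itga5 and 82.4% in Fermt2, but 15.8% in Tln1, beside a median of 51.9% over all genes. Dose took up 0.713% in Itgb1 and 2.00% in Itga5, beside a median of 10.6%. Dose has fewer levels than number, so these shares are not on an equal footing. Markers of cell types moved over the same numbers in the 15 libraries. Of 6 epithelial and mesothelial markers tested 3 passed, among them Msln, which averaged 29.8 to 34.8 CPM in numbers 1 to 3 and 73.9 to 105 in numbers 4 to 6, and the summed level of the list of 7 was 97.2 to 116 CPM against 183 to 253. Not all of the list went that way throughout. Krt19 had 57.0 to 62.5 CPM in numbers 1 to 3, 80.6 in number 4 and 77.6 in number 5. It had 59.5 CPM in the only library of number 6. Krt18 had 1.66 CPM in number 1 and 0.169 in number 5. Its counts were low and uneven within a number, at 64 in 10 µM replicate 1 and 2 in 30 µM replicate 1. Of 9 fibroblast markers 7 passed, among them Pdgfrb, which had 232 to 238 CPM in numbers 1 to 3 and 129.7 to 174 in numbers 4 to 6. This list did not move 1 way either. Dcn had 65.4 to 113 CPM in numbers 1 to 3, 174 in number 4, 209 in number 5 and 80.9 in number 6. Col1a1 had 6607 to 7757 CPM in numbers 1 to 3, 7157 in number 4, 8247 in number 5 and 8311 in number 6. The part of these cell types in the members' differences was not tested.

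Across the 15 libraries, Itga5 and Itgb1 had a Pearson correlation of log2 CPM of 0.939, Itga5 and Fermt2 of 0.919, and Itgb1 and Fermt2 of 0.905. Fn1 was closest to Tns1 (0.893), and Tns2 to Tns3 (0.798), while Sdc4 and Fn1 gave the lowest of the 45 pairs (−0.57). The median over the 45 pairs was 0.225. With all 18 libraries the pattern was another one: Itga5 and Itgb1 had 0.229, Itga5 and Fermt2 0.611, Itgb1 and Fermt2 0.830, Fn1 and Tns1 0.983, and Fn1 and Itga5 0.929. The points share replicate numbers and library scaling, so these are descriptions. Among 9385 genes with a mean of at least 10 CPM, those most like Itgb1 in the 15 libraries were Thbs1 (r = 0.973, and 0.680 with all 18), Slco4a1 (0.970 and 0.920) and Pappa (0.967 and 0.947). Those most like Itga5 were Ptprn (0.976, and 0.919 with all 18), Thbs1 (0.954 and 0.713) and Col7a1 (0.953 and 0.585). Thbs1 encodes thrombospondin-1, a matrix glycoprotein, and Col7a1 the collagen of anchoring fibrils. For Fn1 the nearest were Ylpm1 (0.947, and 0.991 with all 18), Akap13 (0.936 and 0.984) and Ppp2r5e (0.931 and 0.977).

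The promoters of the 3 members that varied together in the 15 libraries are shown, from RefSeq on GRCm38.p6, as 250 bases before to 50 after the start, 5′ to 3′ on the gene's strand. RefSeq entries were found for 9 of the 10 members, Fn1 being the exception. The letters searched on both strands were GGGCGG, the core that Sp1 binds, GGAATG, that of TEAD factors, TGANTCA, that of AP-1, and the CArG box of serum response factor. Matches stand in capitals, and on the opposite strand they read as the reverse complement. Itga5 (chr15:103366742-103367041, minus strand) held GGGCGG 2 times. Itgb1 (chr8:128685404-128685703, plus strand) held GGGCGG and GGAATG 1 time each. Fermt2 (chr14:45530016-45530315, minus strand) held GGGCGG 6 times and a CArG box 1 time. Of 32851 promoters of this length, 35.7% held GGGCGG, 14.7% GGAATG, 7.81% TGANTCA and 1.63% a CArG box. Of these motifs GGGCGG alone was found in all 3 printed promoters, but it was not particular to them. Tns1, Sdc4 and Tns3 held it 4 times each, while Tln1 and Tns2 held it 0 times. Ilk held it 3 times in the entry at chr7:105736475-105736774 and 0 times in its other entry. A match describes letters and is not a binding site.
Itga5 promoter: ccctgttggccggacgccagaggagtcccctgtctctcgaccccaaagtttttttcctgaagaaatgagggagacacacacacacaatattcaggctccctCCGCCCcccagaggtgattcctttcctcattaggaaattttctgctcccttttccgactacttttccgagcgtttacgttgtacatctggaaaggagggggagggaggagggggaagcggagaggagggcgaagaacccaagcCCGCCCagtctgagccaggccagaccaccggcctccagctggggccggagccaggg
Itgb1 promoter: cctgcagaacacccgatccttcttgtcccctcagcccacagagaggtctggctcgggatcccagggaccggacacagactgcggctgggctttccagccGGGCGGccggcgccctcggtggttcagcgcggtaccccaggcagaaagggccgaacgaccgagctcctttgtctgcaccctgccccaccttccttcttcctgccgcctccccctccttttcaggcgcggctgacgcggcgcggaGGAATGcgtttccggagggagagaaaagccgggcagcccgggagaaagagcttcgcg
Fermt2 promoter: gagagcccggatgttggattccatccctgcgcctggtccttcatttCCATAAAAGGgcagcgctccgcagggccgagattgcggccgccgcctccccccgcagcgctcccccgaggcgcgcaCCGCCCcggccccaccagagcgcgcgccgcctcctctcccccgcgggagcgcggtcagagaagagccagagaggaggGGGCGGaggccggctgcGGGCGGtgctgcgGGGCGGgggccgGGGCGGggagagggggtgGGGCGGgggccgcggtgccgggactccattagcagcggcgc

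The largest differences among libraries were those of the 3 over 5% unaligned, and they fell on particular members. Against the median of the other 5 libraries of the dose, Itga5 was 2.96-fold in control replicate 1, 1.53-fold in 10 µM replicate 6 and 2.78-fold in 30 µM replicate 6. Tns1 was 2.27-, 2.47- and 3.50-fold in the same order, Fn1 2.12-, 1.93- and 2.19-fold, and Tns2 1.59-, 1.59- and 2.31-fold. Thus 4 of 10 members were at least 1.5-fold higher in each of these libraries, beside 16.3%, 10.2% and 16.6% of all genes, and 0 of 10 were at least 1.5-fold lower, beside 14.6%, 6.17% and 16.2%. Outside the range of the other libraries were 9, 8 and 7 members of 10, beside 73.7%, 59.4% and 71.5% of all genes. Itgb1 (1.11-, 0.973- and 0.823-fold), Ilk (0.983-, 1.07- and 0.977-fold) and Fermt2 (1.17-, 1.09- and 0.970-fold) lay within 1.5-fold of the median of their mates, so the receptor subunits parted in these libraries. Members differed in how their levels stood to the share of unaligned pairs in these 3 libraries. Itga5 was 2.96-fold at 54.2% unaligned, 2.78-fold at 37.9% and 1.53-fold at 5.24%. Tns3 was 1.48-, 1.44- and 1.11-fold in that order. Tns1 was 2.47-fold at 5.24% and 2.27-fold at 54.2%, and Fn1, Tns1 and Tns2 were higher at 37.9% than at 54.2%. The part of human RNA in these levels was not tested. Since one of these libraries belonged to each dose, none of the dose contrasts set them all on one side.

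**Figure D4:**
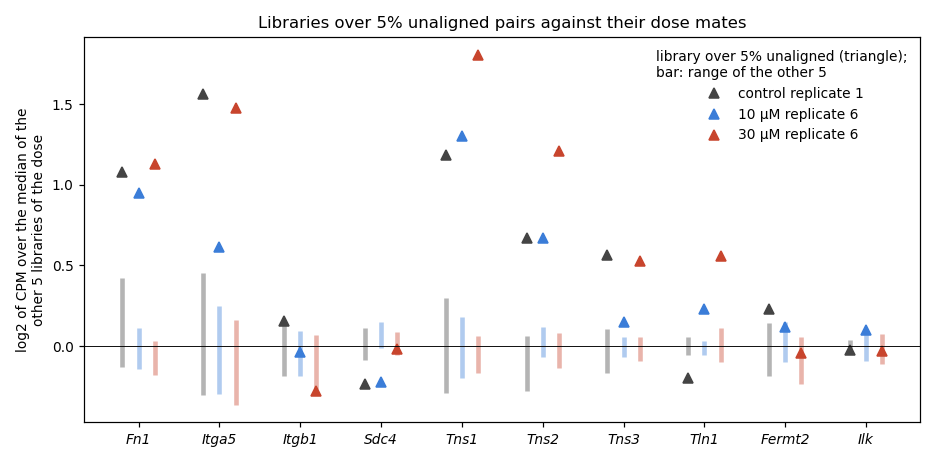
Log2 of the CPM of each member in the 3 libraries over 5% unaligned pairs (triangles) relative to the median of the other 5 libraries of their dose, whose range is drawn as a bar. Fn1, Itga5, Tns1, Tns2 and, by less, Tns3 lie above the bars in all 3 libraries. Tln1 lies below its bar in control replicate 1 and above its bars in 10 µM replicate 6 and 30 µM replicate 6. Itgb1, Sdc4, Fermt2 and Ilk lie nearer 0, but some of their points are outside the bars. Examples are Sdc4 at −0.23 in control replicate 1 and Itgb1 at −0.28 in 30 µM replicate 6.

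A list of 38 other adhesion genes set the members in context, 34 of which were tested. At every dose contrast 0 of 34 passed, by edgeR's test over all genes, and at an unadjusted p under 0.05 there were 0 at 10 µM, 2 at 30 µM and 0 for 30 µM against 10 µM, beside 0.692%, 4.29% and 2.33% of all genes. The 2 at 30 µM, named after their values were seen, were Tln2, which encodes another talin (log2 difference 0.16 ± 0.071, unadjusted p 0.0332, adjusted p 0.931), and Rap1b, a small GTPase that recruits talin (−0.26 ± 0.10, unadjusted p 0.0196, adjusted p 0.931). Neither was under 0.05 in the 15 libraries (unadjusted p 0.0954 for Tln2 and 0.0535 for Rap1b), and the counts were 3 of 34 at 10 µM (Apbb1ip, Zyx and Tgfb1i1, all lower and also named after their values were seen) and 0 at 30 µM, beside 4.72% and 4.33% of all genes. In the test of replicate number, 6 of 34 passed with all 18 libraries and 13 of 34 with the 15, beside 12.6% and 20.8% of all genes.

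By list, the test of replicate number in the 15 libraries called 6 of 8 fibronectin-binding partners, 5 of 14 plaque proteins, 2 of 5 tested partners of Ilk and 0 of 7 tested regulators of integrin activation. With all 18 libraries the counts were 5 of 8, 1 of 14, 0 of 5 and 0 of 7 in the same order. Among the partners, Thbs1 averaged 10610.3 CPM in number 2 and 6869 in number 5 (adjusted p 0.000973 with 18 libraries), and Sdc2, which encodes syndecan-2, 219 and 136 CPM. In the plaque, the adaptor gene Bcar1 averaged 132 CPM in number 2 and 112 in number 5 (adjusted p 0.022 with 18 libraries), and Vcl, which encodes vinculin, 1102 and 978 CPM (adjusted p 0.070 with 18 libraries and 0.0037 with 15). Number 5 was thus the lowest of numbers 1 to 5 for Thbs1, Sdc2, Bcar1 and Vcl, as it was for Itga5, Itgb1 and Fermt2. Lims2, a partner of Ilk, had 7.91 and 5.32 CPM in the same 2 numbers, and Parva, another partner, had 324 and 318. Tln2 (167 and 160.03 CPM) and Rap1a (35.0 and 29.2 CPM), which were the regulators of integrin activation with the smallest p, did not pass (adjusted p 0.307 and 0.381 with 18 libraries).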

How the data were processed

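RNA was sequenced from MEFs at 0, 10 or 30 µM uracil after 24 h, in libraries made by a stranded total RNA kit and sequenced from both ends. The deposited values are raw counts of read pairs for each Ensembl gene in each library, without normalisation. The study's methods say that it presents normalised read counts. The submitters' processing notes name FastQC, HISAT2, SAMtools 1.2 and HTSeq, and the build GRCh38, which is human while the gene identifiers are mouse, and the strand setting of the counting is not given in the sources used here. Overlapping genes are therefore uncertain. The 5 closing entries (outside genes, ambiguous, low quality, unaligned and multiply aligned pairs) entered neither library sizes nor tests, and 0 count columns matched no sample. Pairs that aligned to several places were not counted, and total RNA holds unspliced transcripts.

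Gene names, positions and exon lengths came from GENCODE M39 on GRCm39. The fits used edgeR 4.0.16 under R 4.3.3: filterByExpr by dose, TMM scaling, robust quasi-likelihood fits of dose to all 18 libraries, and Benjamini-Hochberg adjustment over all genes tested, with a threshold of 0.05. Replicate number was tested in an additive model with dose. Each standard error was derived from the F statistic of its contrast. Ratios were compared by exact permutation in SciPy. Alternatives were DESeq2 1.42.0, RLE size factors, no filter on low counts, removal of the libraries over 5% unaligned, the replicate number as a block, both together, each library left out, and, chosen after seeing the data, removal of control replicate 1 and 30 µM replicate 6. Scripts were tested on simulated counts with 200 changed genes. At 30 µM against control, 52.5% of 1.5-fold and 81.5% of 2-fold changes were recovered. For changes placed in replicate number 5 the test of number recovered 8% and 64.5%. Changes of these sizes can thus be missed. No 2 libraries of a dose agreed within sampling noise (chi-square per degree of freedom at least 3.99).

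Members and lists were chosen with earlier results of these data known. By rule the 10 members are always named; from each list of other adhesion genes those past the threshold in a dose contrast would be named, and where none passed the 2 with the smallest p for replicate number and at least 1 CPM were. The 3 genes with the highest correlation to Fn1, Itga5 and Itgb1 were named without a test.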

Additional observations from a re-analysis of the deposited data

Results flagged for a closer look

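Among 39 groups of 6 libraries (10 members and 3 ratios at 3 doses), 24 had a library whose gap to the nearest other exceeded Dixon's 95% critical value. Chance gives about 1 in 20, or 1.95 of 39. Of the 24 values, 7 came from control replicate 1, 7 from 10 µM replicate 6, 9 from 30 µM replicate 6 and 1 from 30 µM replicate 5, and the groups share libraries. In these first 3 libraries Fn1 stood above its group at 14769, 12901 and 15686 CPM, in the order control, 10 µM and 30 µM. Tns1 did so at 299.5, 282 and 430.3 CPM and Tns2 at 51.4, 45.7 and 70.7 CPM. Itga5 was high at 492 CPM in control replicate 1 and 500.3 in 30 µM replicate 6, and Tns3 at 138 and 133 CPM in those 2. Tln1 was high at 1269 CPM in 10 µM replicate 6 and 1655 in 30 µM replicate 6. Fermt2 was low at 203 CPM in 30 µM replicate 5. The log2 ratio of Itga5 to Itgb1 was high in the same 3 libraries, at −1.47, −2.28 and −1.10 in that order. The log2 ratio of Fn1 to Itgb1 was 3.44, 3.38 and 3.87, and that of Tns1 to Tns3 was 1.495 in 10 µM replicate 6 and 1.69 in 30 µM replicate 6. The share of unaligned pairs in these 3 libraries stands in the account of the data.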

How the results depend on the processing

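The count of 0 members past the threshold in the 4 dose tests held under DESeq2, RLE size factors, no filter, each left-out library, the block and both removals, and RLE factors changed no result. The values below are log2 differences from control whose sign turned, none of them past the threshold under any setting, and the cause was not tested. At 10 µM, Itgb1 was 0.010 without the filter. Without the libraries over 5% unaligned, Itgb1 was 0.014 and Tln1 −0.028 at 10 µM, and Itgb1 was 0.015, Tns1 −0.100, Tns2 −0.037, the ratio of Itga5 to Itgb1 −0.037 and that of Tns1 to Tns3 −0.060 at 30 µM. Without control replicate 1 and 30 µM replicate 6, Fn1 was 0.057, Itga5 0.029, Itgb1 0.017, Sdc4 −0.0094, Tns1 0.14 and Tns2 0.046 at 10 µM, and Itgb1 was 0.019, Tns1 −0.096 and Tns2 −0.032 at 30 µM. Itga5 at 30 µM was 0.018 without the filter.

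With each library left out in turn, the log2 difference at 10 µM ranged from −0.36 (without 10 µM replicate 6) to 0.051 (without control replicate 1) for Fn1, from −0.44 to 0.024 for Itga5, from −0.042 to 0.025 for Itgb1, from −0.014 to 0.071 for Sdc4, from −0.45 to 0.13 for Tns1, from −0.21 to 0.042 for Tns2 and from −0.028 to 0.0083 for Ilk. At 30 µM it ranged from −0.31 (without 30 µM replicate 6) to 0.17 (without control replicate 1) for Fn1, from −0.38 to 0.35 for Itga5, from −0.36 to 0.41 for Tns1, from −0.15 to 0.24 for Tns2, from −0.12 to 0.078 for Tns3 and from −0.0057 to 0.029 for Ilk. The ratio of Itga5 to Itgb1 ranged from −0.32 to 0.0089 at 10 µM, −0.26 to 0.25 at 30 µM and −0.046 to 0.35 for 30 against 10 µM. The ratio of Fn1 to Itgb1 ranged from −0.25 to 0.12 at 30 µM and −0.11 to 0.28 for 30 against 10 µM. The ratio of Tns1 to Tns3 ranged from −0.23 to 0.069 at 10 µM, −0.17 to 0.15 at 30 µM and −0.13 to 0.28 for 30 against 10 µM.

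The count of members past the threshold for replicate number was the result that moved most: 1 with all libraries, 5 under DESeq2, 0 without the filter, 3 without the libraries over 5% unaligned, 3 without control replicate 1 and 30 µM replicate 6, and 0 to 6 with single libraries left out.

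With the replicate number as a block, 0 members passed in any dose test. Tns1 at 30 µM was −0.034 with the block, and with the block and without the libraries over 5% unaligned it was −0.074, Tns2 was −0.088, and at 10 µM Itgb1 was 2.4e-05, Sdc4 −0.014 and Tln1 −0.012. In that last fit Itga5 (−0.11 ± 0.044, SE), Tns1 (−0.17 ± 0.073), Tns2 (−0.14 ± 0.058) and Tns3 (−0.099 ± 0.044) had an unadjusted p under 0.05 at 10 µM, beside 3.72% of all genes, and an adjusted p of 1.00 in edgeR. With all 18 libraries, the exact sign-flip permutation of differences within numbers gave the ratio of Itga5 to Itgb1 at 30 against 10 µM p = 0.0312 (adjusted p 0.281). That is the smallest p this test can give with its 64 sign flips. The largest of the 6 differences was that of number 6, with both libraries over 5% unaligned. There the log2 ratio was −2.28 at 10 µM and −1.10 at 30 µM. For the next values the mean of each dose was taken out, and only libraries of different doses were paired. Libraries of the same number deviated together with r above 0.1 in 16 of 18 pairs (lowest −0.10, median 0.40), so not in every pair. Among the libraries of the other doses, 14 of 18 libraries correlated best with one of their own number. This is a hint from the data and not from the design. Among pairs of different numbers r was above 0.1 in 27 of 90 (median −0.065). Without the libraries over 5% unaligned, r was above 0.1 in 12 of 13 pairs of the same number (median 0.32). It was so in 23 of 62 pairs of different numbers (median −0.14). Then 8 of 14 libraries correlated best with one of their own number, again only among the libraries of the other doses.

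The members had at least 191 counts in every library, and counting error was not separated from the spread between libraries.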

Other observations

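Apbb1ip, which encodes the Rap1 effector that brings talin to integrins, is listed among the regulators of integrin activation and was picked here after its values were seen. In the 3 libraries over 5% unaligned it stood at 32.9 CPM (control), 10.1 CPM (10 µM) and 19.2 CPM (30 µM), against medians of 3.70, 2.30 and 2.87 CPM in the other libraries of the same doses. Parvb, a partner of Ilk and picked in the same way, had 3.501 CPM, 1.18 CPM and 2.63 CPM in these libraries against medians of 0.505, 0.545 and 0.747. It was near the floor, with 13, 17 and 17 counts in these libraries and 4 to 16 in the others. Of the 34 other adhesion genes tested, 8, 3 and 10 were at least 1.5-fold higher in these libraries, in the same order, beside 16.3%, 10.2% and 16.6% of all genes, and 2, 0 and 4 were at least 1.5-fold lower. Those higher in each of the 3 libraries were Apbb1ip, Parvb and Actn4, which encodes an actin crosslinker (1.95-, 1.74- and 2.76-fold).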
